A study of Mus musculus with 8 samples.

Results

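The alpha and beta globin genes of the mouse encode the protein chains of haemoglobin. The genes described were Hba-x, Hba-a1 and Hba-a2 of the alpha cluster on chromosome 11, and Hbb-y, Hbb-bh1, Hbb-bs and Hbb-bt of the beta cluster on chromosome 7, which makes 7 of the 21755 protein-coding genes annotated on the autosomes and X. They were chosen by name, and each gene body was taken with 10 kb to either side in the GENCODE M21 annotation of GRCm38. The flanks overlap, so that the 7 loci merged into an alpha region at chr11:32266400-32307298 and a beta region at chr7:103802524-103863216. On chromosome 11 plus strand, Hba-x lies at chr11:32276400-32278116, Hba-a1 at chr11:32283511-32284465 and Hba-a2 at chr11:32296489-32297298. On the minus strand of chromosome 7, Hbb-bt lies at chr7:103812524-103813996, Hbb-bs at chr7:103826534-103828096, Hbb-bh1 at chr7:103841637-103843164 and Hbb-y at chr7:103851749-103853216. CpGs were used where all 4 deposited files listed them with 5 or more reads. That left 411 of the 460 reference CpGs of the alpha region and 250 of the 291 of the beta region.

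A haemoglobin molecule pairs alpha-type with beta-type chains, and red cell precursors make large amounts of both. Hba-x (the zeta chain), Hbb-y and Hbb-bh1 serve the embryo, and Hba-a1, Hba-a2, Hbb-bs and Hbb-bt serve the adult. The genes of each cluster lie in one orientation and are switched on in erythroid cells by distant enhancers. Several of those of the alpha cluster lie within the neighbouring Nprl3. Lymphocytes do not use these genes, and methylated CpGs are a common feature of genes that a tissue does not use.

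Spleen lymphocytes were studied by whole-genome bisulfite sequencing, which reads methylation at single cytosines, in cells of C57BL/6J mice, an inbred strain, aged 6 to 8 weeks. The cells were resting CD43- B cells and naive CD4+CD62L+ T cells of each sex, pooled over animals, and the labels name no treatment. The T cell isolation used an antibody cocktail that included Ter-119, an erythroid surface marker. The 8 samples formed 4 groups of 2 by sex and cell type, and each group had 1 file, for which it is not stated whether it merges both samples. The descriptions of both samples name that file, while the number in its name matches the title of only 1 of them. It may thus hold a single sample. Each group was therefore measured once, with no spread between pools, and a B and T cell difference was seen once in each sex. Bisulfite reads 5-methylcytosine and 5-hydroxymethylcytosine alike. Mean depth per autosomal CpG was 14.6 to 17.7 reads, and autosomal methylation was 79.5% to 80.7%. Of the markers fixed for each cell type, all 7 B cell promoters were less methylated in B cells and 7 of 8 T cell promoters less methylated in T cells, the exception being Cd28.

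The following promoter sequences are printed from 5′ to 3′ on the coding strand with every CpG in capitals. The promoters of the adult genes, from 250 bases before to 50 bases after the RefSeq start on GRCm38, are shown because they hold few CpGs and because those of Hba-a1 and Hba-a2 are the same over their shared bases. The promoter of Hbq1b, a theta-like globin gene within the alpha cluster, is shown as a contrast. No promoter is printed for Hbb-bh1.
Hba-a1, chr11:32283422-32283721, plus strand: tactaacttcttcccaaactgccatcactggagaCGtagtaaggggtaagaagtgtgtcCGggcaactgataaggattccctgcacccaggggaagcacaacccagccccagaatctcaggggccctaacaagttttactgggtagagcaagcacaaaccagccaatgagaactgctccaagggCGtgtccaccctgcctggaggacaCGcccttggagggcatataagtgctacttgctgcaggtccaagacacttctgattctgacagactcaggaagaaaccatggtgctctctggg
Hba-a2, chr11:32296242-32296541, plus strand: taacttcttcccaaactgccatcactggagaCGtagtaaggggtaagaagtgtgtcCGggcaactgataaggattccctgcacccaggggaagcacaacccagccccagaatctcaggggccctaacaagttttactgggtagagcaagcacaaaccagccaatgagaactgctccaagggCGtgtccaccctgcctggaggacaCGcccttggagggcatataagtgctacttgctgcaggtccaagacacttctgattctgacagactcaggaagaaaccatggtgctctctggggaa
Hbb-bs, chr7:103827879-103828178, minus strand: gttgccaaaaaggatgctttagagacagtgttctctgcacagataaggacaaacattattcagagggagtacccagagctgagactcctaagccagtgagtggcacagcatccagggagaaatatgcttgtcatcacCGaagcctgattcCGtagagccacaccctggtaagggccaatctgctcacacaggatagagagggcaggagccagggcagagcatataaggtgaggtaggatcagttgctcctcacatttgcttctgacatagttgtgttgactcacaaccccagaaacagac
Hbb-bt, chr7:103813874-103814173, minus strand: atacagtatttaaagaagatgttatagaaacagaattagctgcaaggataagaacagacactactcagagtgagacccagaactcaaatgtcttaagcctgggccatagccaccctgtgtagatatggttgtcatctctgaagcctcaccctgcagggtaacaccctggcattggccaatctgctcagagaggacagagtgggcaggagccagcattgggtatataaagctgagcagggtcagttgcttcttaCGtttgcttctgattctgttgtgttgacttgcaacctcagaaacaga
Hbq1b, chr11:32286714-32287013, plus strand: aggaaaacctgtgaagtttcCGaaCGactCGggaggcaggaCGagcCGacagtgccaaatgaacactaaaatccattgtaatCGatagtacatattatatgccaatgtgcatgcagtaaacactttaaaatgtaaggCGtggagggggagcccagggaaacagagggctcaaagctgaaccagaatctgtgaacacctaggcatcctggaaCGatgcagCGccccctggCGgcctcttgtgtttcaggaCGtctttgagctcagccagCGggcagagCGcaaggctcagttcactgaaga

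The 300-base promoters of Hba-a1 and Hba-a2 share 297 bases without a difference, since the RefSeq starts set them off by a few bases, and each held 4 CpGs. Those of Hbb-bs and Hbb-bt were identical at 74.1% of aligned positions between their overhanging ends and held 2 and 1 CpGs. Hba-x held 2, Hbb-y held 1, and Hbq1b and Hbq1a held 13 and 8, against a median of 7 over 32544 distinct promoters of the same length. The letters CACCC, a motif known from globin promoters, occurred on either strand in the promoters of all 6 members that had one, and in 57.7% of all promoters. A GATA box, searched on both strands as AGATAA or as TGATAA, and with a final G as AGATAG or as TGATAG, occurred in all of these but Hbb-bt and in 29.6% of all promoters. CCAAT occurred in all of these but Hba-x and in 37.4% of all promoters.

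Stretches of 3 further places are shown because B and T cells differed there. The stretch upstream of Hbb-bh1 was read from GRCm38 and lies just before the annotated start. The other stretches are from the last coding exons of Hbb-bs and Hbb-bt.
Hbb-bh1 upstream, chr7:103843325-103843621, minus strand: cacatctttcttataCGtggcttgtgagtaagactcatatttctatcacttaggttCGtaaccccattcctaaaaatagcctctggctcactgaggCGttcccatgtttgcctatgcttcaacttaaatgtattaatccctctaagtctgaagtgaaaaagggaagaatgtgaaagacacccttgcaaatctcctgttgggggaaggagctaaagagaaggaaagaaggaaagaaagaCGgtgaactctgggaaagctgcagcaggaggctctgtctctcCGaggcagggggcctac
Hbb-bs last coding exon, chr7:103826676-103826791, minus strand: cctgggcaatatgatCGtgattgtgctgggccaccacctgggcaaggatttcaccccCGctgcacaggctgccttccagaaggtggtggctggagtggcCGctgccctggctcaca
Hbb-bt last coding exon, chr7:103812667-103812782, minus strand: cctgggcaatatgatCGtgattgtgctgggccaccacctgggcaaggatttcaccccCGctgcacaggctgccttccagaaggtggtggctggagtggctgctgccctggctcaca
The 2 exon stretches were identical at 115 of 116 positions, and the last CpG of the Hbb-bs stretch has no counterpart in Hbb-bt.

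The beta cluster was highly methylated in all 4 files, and the alpha cluster was a mixture of methylated stretches and unmethylated CpG-rich starts. Over the beta region, 87.5% of reads were methylated in B cells of females (95% Wilson interval 86.3 to 88.7) and 86.3% in those of males (85.1 to 87.4), against 92.0% (91.0 to 92.8) and 88.6% (87.5 to 89.6) in T cells of females and males. Over the alpha region B cells were at 60.8% (59.6 to 62.0) and 58.9% (57.8 to 60.1) and T cells at 59.8% (58.8 to 60.9) and 58.2% (57.1 to 59.4). Below, sets of 4 levels are given in the order B then T cells of females, then B then T cells of males. The intervals cover counting error only. A read that covers several CpGs was counted at each of them, so read numbers over several CpGs are not numbers of separate molecules. The intervals treat these counts as independent and are too narrow to that extent. The alpha region held 11.2 CpGs per kb and the beta region 4.79. In the alpha region 88 of the 411 CpGs were under 20% in every file, and in the beta region none of the 250 was. CpGs at 80% or more in every file numbered 151 in the alpha region and 167 in the beta region. Of windows of 1 kb with at least 3 CpGs, 25 of 39 alpha windows (64.1%) and 35 of 42 beta windows (83.3%) averaged 80% or more over the 4 files, against 83.0% of 2018320 windows tested.

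**Figure D1:**
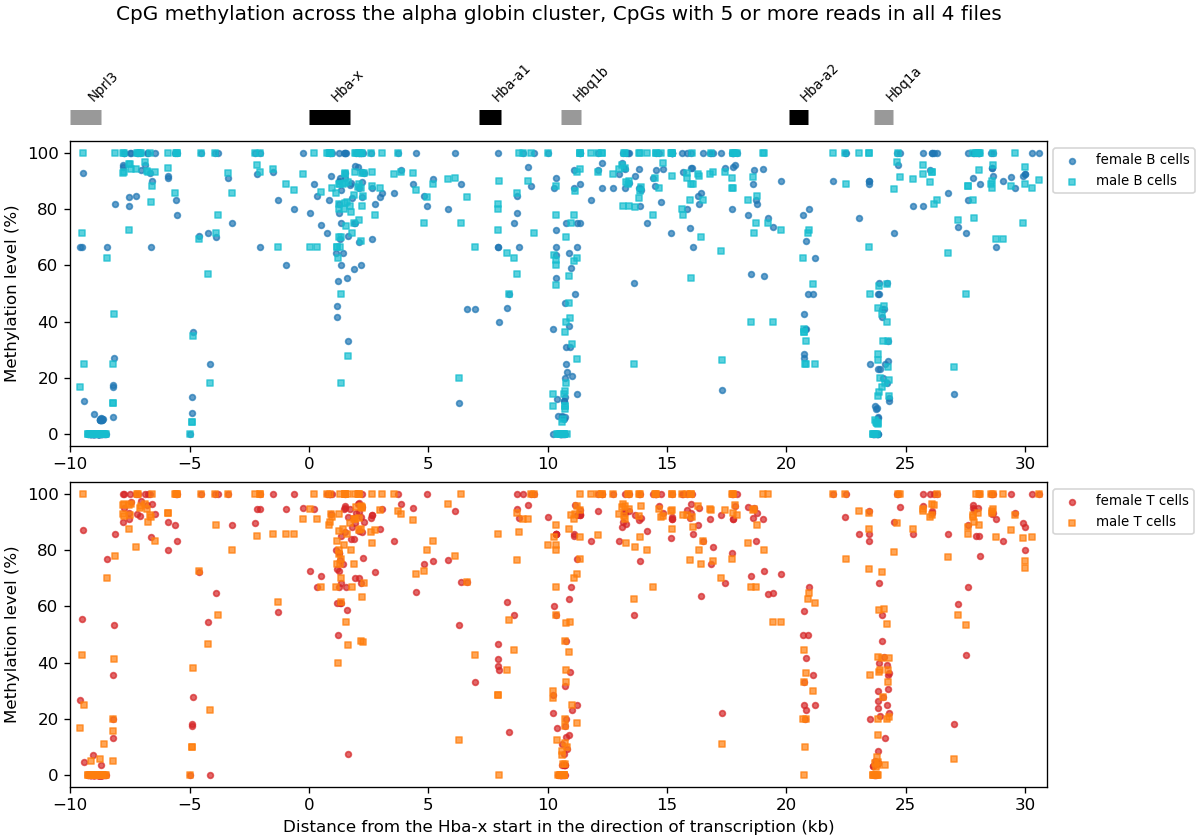
Methylation level (%) of each CpG with 5 or more reads in all 4 files across the alpha region, plotted against distance from the Hba-x start in kb, with B cell files in the upper plot and T cell files in the lower. Black bars are the 3 alpha globin genes and grey bars other genes, and the levels fall to near 0 at Nprl3, Hbq1b and Hbq1a in all 4 files.

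The unmethylated CpGs of the alpha cluster lay mainly at genes other than the members. Runs of at least 4 neighbouring CpGs under 20% in every file occurred 3 times. The run at the start of Nprl3, a regulator of nutrient signalling that is used widely, held 57 CpGs over 787 bases at chr11:32267130-32267916, and its level was 1.73%, 0.169%, 0% and 0.365%. The run at Hbq1b held 14 CpGs over 299 bases at 1.56% to 3.81%, and that at Hbq1a held 12 CpGs over 210 bases at 1.82% to 3.55%. Both reach from the promoter into the gene. In the Hbq1b sequence printed above, the 5 CpGs at the 5′ end were at 52.9% to 90.9% in every file, and those within 50 bases of the start were at 0% to 11.1%. The level over the whole gene body was 34.2% to 43.8% for Hbq1b and 18.9% to 24.5% for Hbq1a.

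Between Nprl3 and Hba-x a further low stretch lay outside any annotated gene. The CpG at chr11:32271404, position -4996 from the Hba-x start, was at 0% in all 4 files with 13 to 26 reads. Its neighbours at -4907 and -4897 were at 4.35% to 18.2%, while the CpG at -4524 was at 100% in every file. The 1 kb window over this stretch averaged 40.5%, 37.4%, 26.8% and 36.7%.

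**Figure D2:**
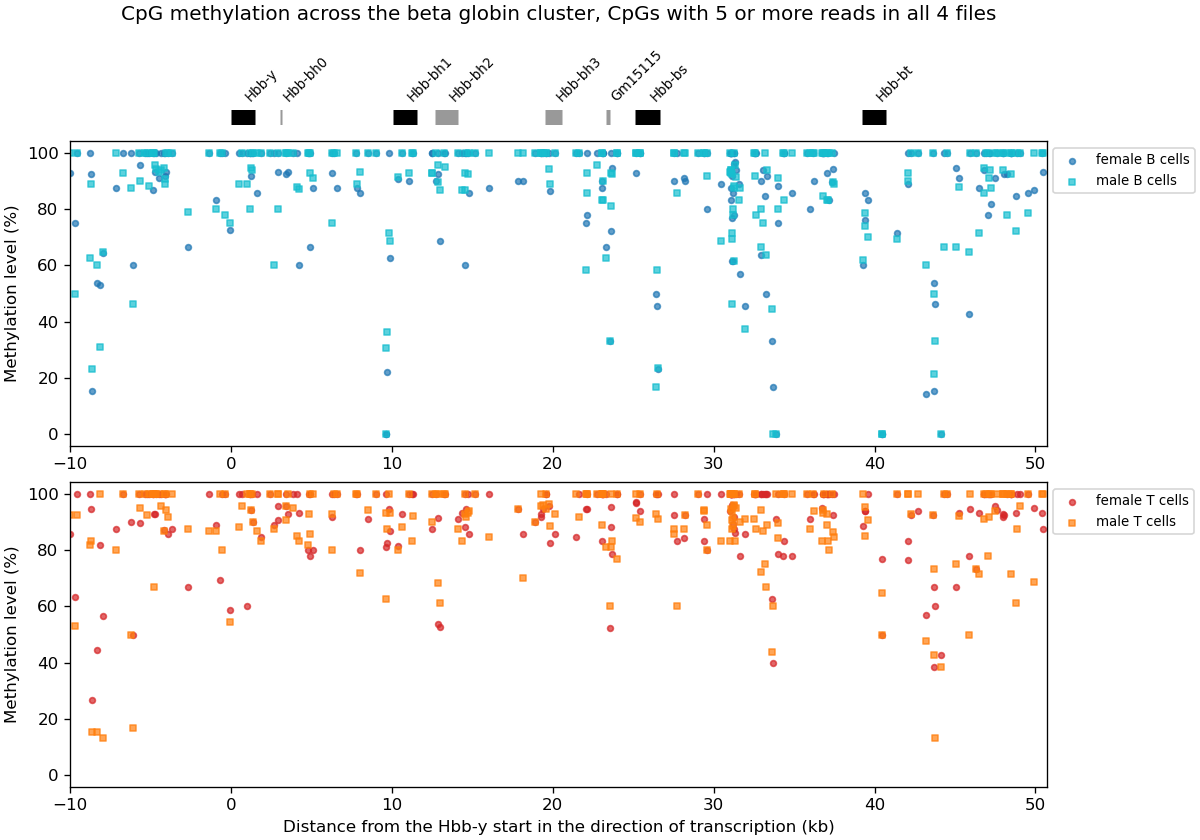
Methylation level (%) of each CpG with 5 or more reads in all 4 files across the beta region, plotted against distance from the Hbb-y start in kb, with B cell files in the upper plot and T cell files in the lower. Most CpGs sit above 80%, and the B cell files drop to low levels just upstream of Hbb-bh1, at the ends of Hbb-bs and Hbb-bt and at scattered CpGs elsewhere, where the T cell files stay higher.

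Of the embryonic genes, Hba-x and Hbb-y were mostly methylated at and around their starts in all 4 files. A promoter was taken as the annotated start with 1 kb to either side. That of Hba-x, with 13 CpGs, was at 84.1%, 89.5%, 87.6% and 89.9%. The promoter of Hbb-y, with 8 CpGs, was at 94.1%, 81.4%, 89.5% and 88.3%. Over 21082 promoters the median level was 14.6% and the median number of CpGs used was 61. The mean level over the 4 files put Hba-x at the 85.0th percentile and Hbb-y at the 85.9th. Such ranks set starts with few CpGs against promoters that mostly hold more. The single CpG of the 300-base Hbb-y promoter, at -96 from the RefSeq start, was at 72.7%, 58.8%, 75% and 54.5%. The gene bodies were at 77.5% to 83.2% for Hba-x and 93.0% to 98.9% for Hbb-y.

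Near the start of Hbb-bh1 the B cell files were lower than the T cell files. Its promoter, with 7 CpGs, was at 61.0% (49.9 to 71.2) in female B cells and 62.6% (52.8 to 71.5) in male B cells, against 87.6% (80.5 to 92.3) in female T cells and 85.8% (78.0 to 91.2) in male T cells. These intervals are too narrow, as stated above, so they are no test of the difference. In the test described below the promoter was not called (adjusted p = 0.0600, quasi-binomial model). The body of Hbb-bh1 was at 88.5% to 96.6% in all 4 files.

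Of the adult beta genes, Hbb-bs was near full methylation at its start in all 4 files and Hbb-bt was so in T cells. The Hbb-bs promoter, with 4 CpGs, was at 98.1%, 96.9%, 100% and 95.2%, at the 99.9th percentile of all promoters, most of which hold more CpGs. The 4 were of 8 reference CpGs, and 2 of them had unique surroundings. The Hbb-bt promoter, also with 4 CpGs, was at 75.7% and 72.1% in female and male B cells and at 93.3% and 92.6% in female and male T cells. The CpG 3 bases after the RefSeq start of Hbb-bt was at 60%, 88.5%, 61.9% and 100%.

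By the mean over the 4 files, Hba-a2 and Hba-a1 had the lowest promoter levels of the 7 genes, in part from CpGs at the gene end. The Hba-a1 promoter, with 9 CpGs, was at 64.6%, 53.9%, 72.1% and 54.5%, and that of Hba-a2, with 12 CpGs, at 57.1%, 48.1%, 46.4% and 45.8%. In both T cell files these lay below the other 5 promoters. In B cells the interval of Hba-a1 overlapped those of Hbb-bh1 and Hbb-bt in each sex. Neither value includes the CpGs of the 300-base promoters printed above, because none of the 4 CpGs of either promoter had 5 reads in every file. Of the CpGs used, 4 of 9 for Hba-a1 and 7 of 12 for Hba-a2 lay in the last part of the gene body. That part is repeated sequence, as described below. There Hba-a1 was at 71.9%, 40.9%, 81.0% and 37.0%, and Hba-a2 at 44.8%, 34.5%, 34.6% and 23.3%. The only Hba-a2 promoter CpG with unique surroundings was at 76.9%, 64.3%, 75% and 100%. The low rank of Hba-a2 therefore rests on repeated CpGs.

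**Figure D3:**
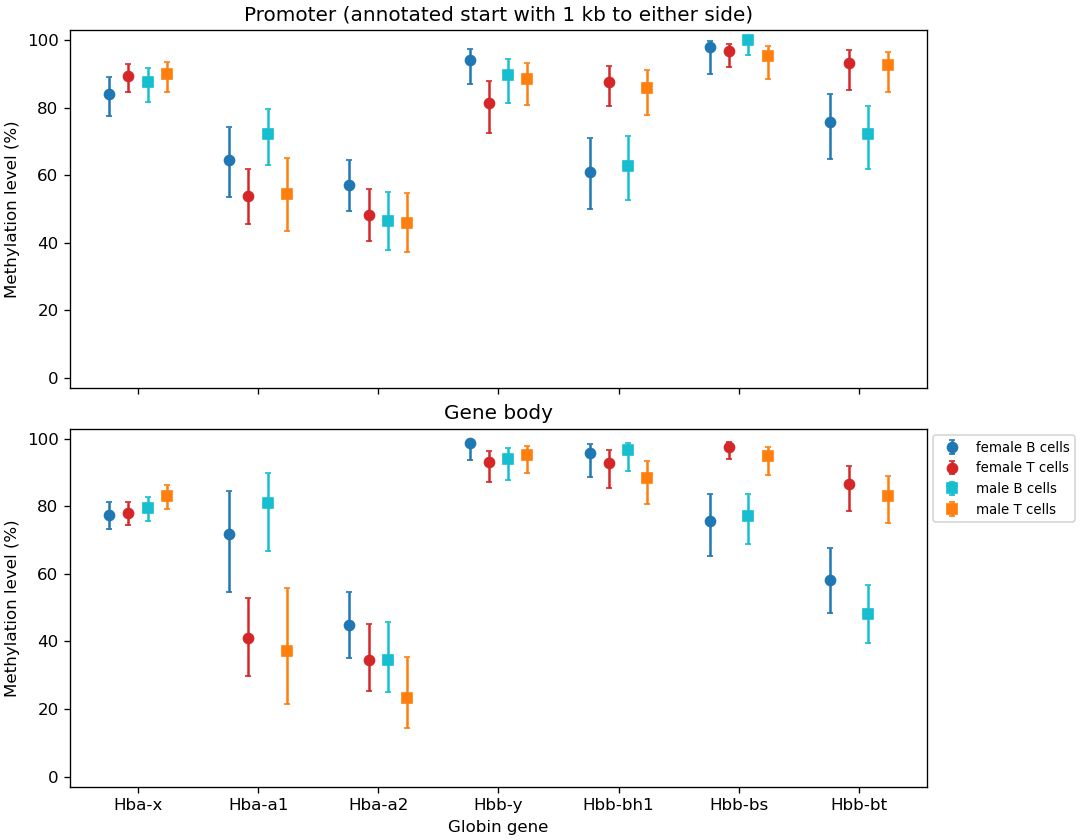
Methylation level (%) of the promoter (upper plot) and the gene body (lower plot) of each globin gene in the 4 files, with 95% Wilson intervals for counting error as bars. Promoters of Hba-a1 and Hba-a2 sit between 45.8% and 72.1%, and B and T cell files separate at the promoters of Hbb-bh1 and Hbb-bt and at the bodies of Hbb-bs, Hbb-bt and Hba-a1.

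Coverage was thin where the paired adult genes are near-identical. A 2348-base alignment that holds Hba-a1 and Hba-a2 was 96.3% identical, and a 1599-base alignment that holds Hbb-bt and Hbb-bs was 93.7% identical. A CpG was called repeated where its surrounding 100 bases, after conversion of C to T, occurred elsewhere in chromosomes 1 to 19, X or Y. All 22 CpGs of the Hba-a1 body and all 20 of the Hba-a2 body were repeated, as were 8 of 11 in Hbb-bs and 8 of 9 in Hbb-bt, and none in Hba-x, Hbb-y and Hbb-bh1.

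In Hba-a1 only 4 of 22 CpGs (18.2%) had 5 reads in all files, and 15 were in no file. In Hba-a2 the numbers were 7 of 20 (35%) and 13. Hbb-bs had 7 of 11 and Hbb-bt 6 of 9, while Hba-x had 33 of 33, Hbb-y 8 of 8 and Hbb-bh1 5 of 6. Across the alpha region, 380 of 391 unique CpGs (97.2%) were in all files against 31 of 69 repeated ones (44.9%). In the beta region these were 200 of 225 (88.9%) and 50 of 66 (75.8%). Repeated CpGs that were listed had mean depths of 11.3 to 17.2 reads per file, and unique ones 12 to 19.6. At a repeated CpG the files do not tell from which copy a read came, and the levels of the adult genes rest on the CpGs that remained.

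**Figure D4:**
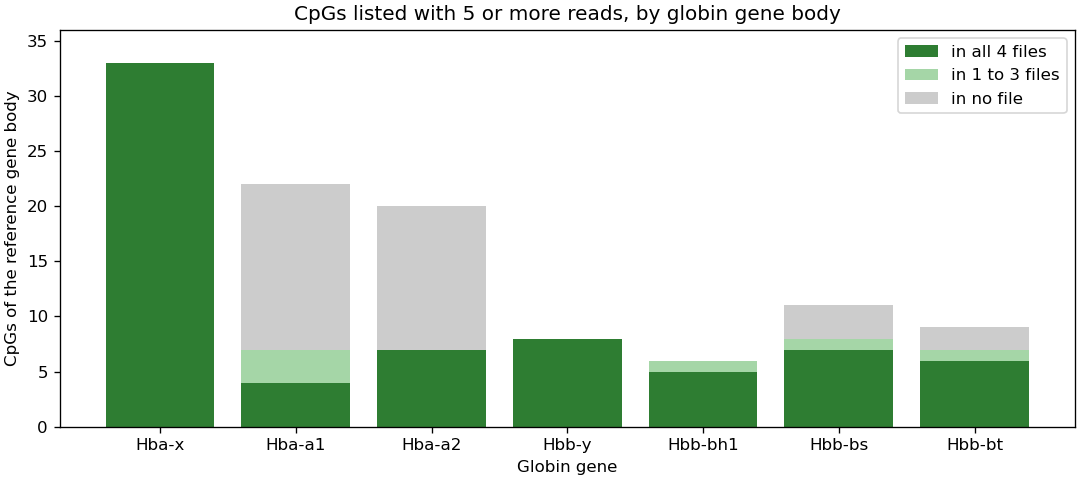
Number of reference CpGs in each globin gene body, divided into those listed with 5 or more reads in all 4 files, in 1 to 3 files and in no file. Most CpGs of Hba-a1 and Hba-a2 (15 of 22 and 13 of 20) are in no file, while all 33 of Hba-x are in all 4.

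B and T cells were compared in the reads of each feature by a quasi-binomial model that held cell type and sex, with p adjusted over all features by the Benjamini-Hochberg method. A call needed an adjusted p below 0.05 together with 20 or more percentage points between the cell types, averaged over the sexes. Of the 81 windows of 1 kb in both regions, 3 were called, 2 lower and 1 higher in B cells. Over all windows tested 2.08% were called, 0.913% lower and 1.16% higher in B cells. Limma called 2 of the 81, beside 1.02% of all windows. The median difference was 0.273 points over the alpha windows, 0.0440 over the beta windows and 0.0489 over all windows, and the median absolute difference was 3.05, 4.04 and 2.26 points. Every window was in effect given 1 common spread, taken from the windows in which every file was expected to hold 5 or more reads of either state, so a p-value does not measure the spread at its own window. With a prior spread estimated from all windows instead, none of the 81 was called, and adjusted p for the 3 rose to between 0.0944 and 0.32.

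**Figure D5:**
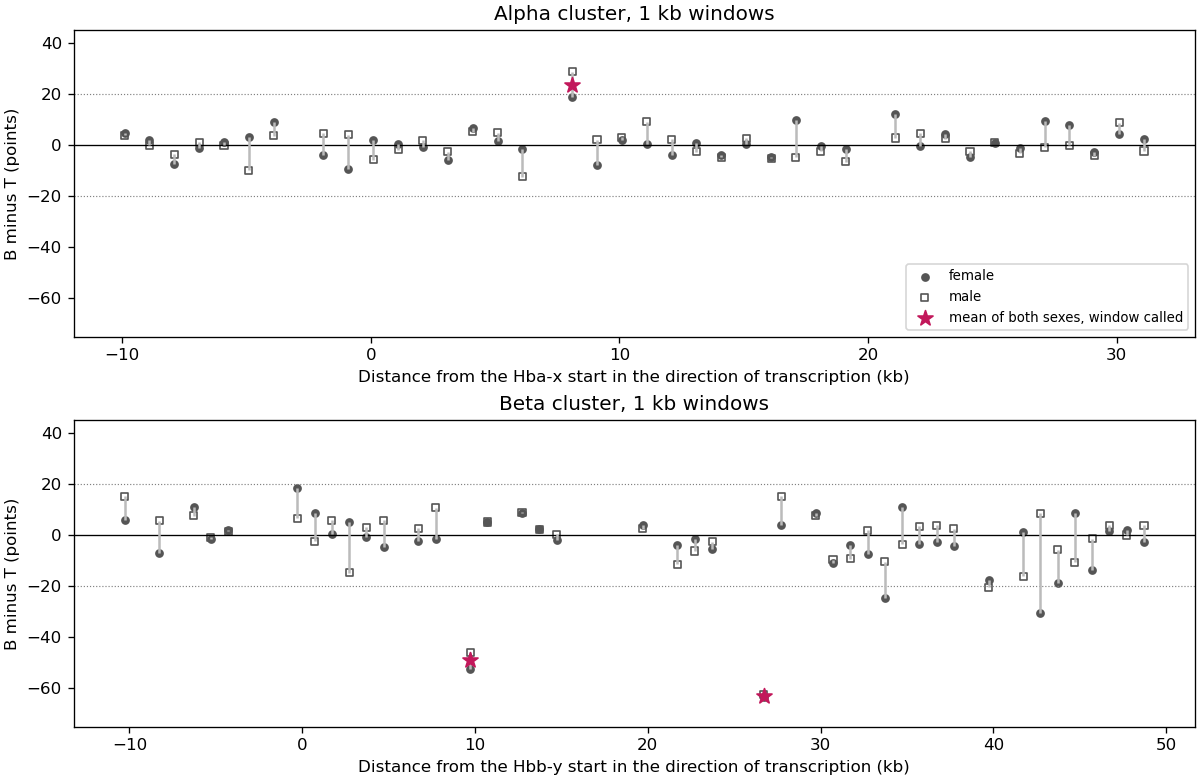
Difference in methylation level, B minus T cells in percentage points, of each 1 kb window of the alpha (upper) and beta (lower) regions against distance from the Hba-x or Hbb-y start in kb. Filled circles are females, open squares males, stars the mean of both sexes at the 3 called windows, and dotted lines the 20-point threshold, and the called windows sit at -63.0, -49.1 and 23.6 points.

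The largest difference of the 81 windows lay in the last coding exon of Hbb-bs, in the window chr7:103826001-103827000 with 3 CpGs. It was at 36.7%, 100%, 31.7% and 94.3%, from 30 to 41 reads. The B cell files were both low and the T cell files both near full methylation. The mean difference was -63.0 points (adjusted p = 4.56e-12, 1.24e-09 to 0.121 over alternatives with the same window, 4.12e-12 in a window of 500 bases). In the Hbb-bs exon sequence printed above, the CpG at 103826775 was at 50%, 100%, 16.7% and 92.9%, that at 103826733 at 45.5%, 100%, 58.3% and 100%, and that at 103826691 at 23.1%, 100%, 23.5% and 90.9%. The last is the CpG absent from Hbb-bt, and the only one of the 3 with unique surroundings. None of the 3 called windows could be tested at a coverage minimum of 10 reads.

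The matching exon of Hbb-bt showed a like difference, although its window held too few CpGs to be tested. The CpG at chr7:103812766 was at 0% in both B cell files, 76.9% in female T cells and 64.7% in male T cells. That at 103812724 was at 0% in both B cell files and 50% in both T cell files. Since the 2 exons are nearly the same, reads of both copies were also summed over their matching CpGs, with a read counted at each CpG it covers. The sums were 20.5% (39 reads) and 13.4% (67 reads) in female and male B cells, and 81.8% (44 reads) and 74.5% (55 reads) in female and male T cells. Taken over whole gene bodies, B minus T was -19.9 points for Hbb-bs and -31.7 points for Hbb-bt, and neither was called (adjusted p = 0.165 and 0.128, quasi-binomial model over 21299 bodies).

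The other window lower in B cells lay before Hbb-bh1, at chr7:103843001-103844000, where all 5 CpGs were outside annotated genes and had unique surroundings. It was at 36.4% (44 reads), 88.8% (80 reads), 40.7% (59 reads) and 86.5% (74 reads). The mean difference was -49.1 points (adjusted p = 3.54e-11, 2.59e-07 to 0.0944 over alternatives with the same window). The difference was uneven along the stretch printed above. The 3 CpGs at its 5′ end, at -441, -400 and -360 from the annotated start, were at 0% to 36.4% in the B cell files and 62.5% to 100% in the T cell files. The CpGs at -218 and -176 were at 62.5% to 100% in all 4 files. In windows of 500 bases the 3 CpGs alone gave 7.41%, 87.2%, 22.2% and 80.9%, a mean difference of -69.2 points (adjusted p = 1.33e-12).

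The window higher in B cells lay over Hba-a1, at chr11:32284001-32285000. It was at 58.8% (68 reads), 40.2% (92 reads), 70.8% (72 reads) and 42.3% (71 reads), a mean difference of 23.6 points (adjusted p = 0.00886, 0.00637 to 0.358 over alternatives with the same window, 0.00154 in a window of 500 bases). Only 6 of its 21 reference CpGs were in all 4 files, and 4 of these 6 lay in the repeated part of the gene. The call was lost without the female T cell file (adjusted p = 0.116), without the male B cell file (0.358) and with limma (0.285). At the 4 repeated CpGs, Hba-a1 was at 71.9%, 40.9%, 81.0% and 37.0%, and the 4 matching CpGs of Hba-a2 were at 34.5%, 33.3%, 32.6% and 20.6%. B minus T at these CpGs was 31.0 points in females and 43.9 in males for Hba-a1, and 1.21 and 12.02 for Hba-a2. Summed over the 8 CpGs of both copies the levels were 48.3%, 37.6%, 55.7% and 27.9%, a mean difference of 19.2 points. The part of read assignment between the copies in this result was not tested.

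Of the 81 windows, 6 had an adjusted p below 0.05, the 3 called ones among them. The others passed the adjusted p but not the 20 points, and all were lower in B cells. How many of all windows did so, in either direction, is not given here, so this shared direction has no measure beside it. The window at the start of Hbb-bt (chr7:103813001-103814000) differed by -19.1 points (adjusted p = 0.00126). It holds the same 4 CpGs and reads as the Hbb-bt promoter, whose adjusted p was 0.128 with the spread and adjustment of promoters, and only 1 of the 4 CpGs had unique surroundings. Without the female B cell file it was called, at -20.9 points (adjusted p = 0.0052). A window of 7 CpGs between Hbb-bt and Hbb-bs, at chr7:103819001-103820000, differed by -17.5 points (adjusted p = 0.0311). Within it the CpG at 103819341 was at 0%, 90.9%, 0% and 100%, from 6 to 11 reads and in repeated surroundings. Of the 7 CpGs in the window, 2 had unique surroundings. This window was called without the male T cell file, at -23.4 points (adjusted p = 0.0215), and its first 500 bases were called at -25.6 points (adjusted p = 0.0171). Another between these genes, at chr7:103822001-103823000 with 13 CpGs of unique surroundings, differed by -10.4 points (adjusted p = 0.000392). Taken by single CpGs, both B cell files lay at least 40 points below both T cell files at 10 of the 250 CpGs of the beta region, and at least 40 points above at none. In the alpha region there were none in either direction among 411. Over all 18714703 CpGs in the 4 files, 0.407% were lower and 0.547% higher in B cells by this measure. Of the 10 CpGs, 4 had unique surroundings, 3 of them before Hbb-bh1 and 1 in Hbb-bs.

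The remaining windows that were lowest in level or differed most in each region were not called. In the beta region the lowest lay between genes, at chr7:103809001-103810000 downstream of Hbb-bt, with 43.1%, 61.8%, 45.7% and 51.4%. The next lay at chr7:103861001-103862000 upstream of Hbb-y, with 61.3%, 68.5%, 51.5% and 45.8%. The start of Hbb-y (chr7:103853001-103854000) was higher in B cells by 12.4 points (adjusted p = 0.442), with 92.1%, 73.8%, 88.4% and 81.8%. In the alpha region the lowest were those already given at Nprl3, at 0.917% to 2.83%, and before Hba-x, with Hbq1a at 18.8% to 23.5% and the windows chr11:32286001-32287000 and chr11:32287001-32288000 of Hbq1b at 24.8% to 28.0% and 36.3% to 47.7%. After Hba-a1, the largest alpha difference was at Hba-a2 (chr11:32297001-32298000), 7.52 points (adjusted p = 0.579), from 51.0%, 38.7%, 40.9% and 38.2%. The windows starting at 32282001, 32306001 and 32272001 differed by -6.99, 6.43 and 6.43 points (adjusted p = 0.801, 0.683 and 0.797). B minus T had the same sign in both sexes in 22 of 39 alpha and 24 of 42 beta windows, without a share over all windows to set beside them.

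No promoter and no whole locus of the 7 genes was called, against 0.915% of 21082 promoters and 0.0925% of 21624 loci. The promoter of Hbb-bh1 came nearest, with B minus T of -24.9 points (adjusted p = 0.0600), followed by Hbb-bt at -19.1 points (adjusted p = 0.128) and Hba-a1 at 14.1 points (adjusted p = 0.416). With unique CpGs alone the Hbb-bt promoter differed by -33.3 points on 1 CpG and that of Hba-a1 turned to -6.07 points on 3. At a coverage minimum of 10 reads the Hbb-bh1 promoter turned to 9.60 points on 2 CpGs, neither of them among the 3 at -441 to -360. The other 4 promoters differed by -3.83 to 6.93 points. At an unadjusted p under 0.05 there were 2 of 7 promoters and 2 of 7 loci, beside 14.3% of all promoters and 16.1% of all loci. Limma on log2 ratios called 1 promoter, Hbb-bh1, and 0 loci, beside 0.716% and 0.106% over all. Its adjusted p for the Hbb-bt promoter was 0.0254, with the difference under 20 points. With 500 bases to either side of the start, Hbb-bh1 was called at -31.8 points (adjusted p = 0.00840, quasi-binomial model). At this size only Hbb-bh1, Hbb-bt, Hbb-bs and Hba-x held enough CpGs to be tested, and the share called over all promoters is not given here.

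Over gene bodies with their flanks, Hbb-bt differed by -6.47 points (adjusted p = 0.244) and Hbb-bs by -5.19 points (adjusted p = 0.272). Limma gave adjusted p of 0.0171 and 0.0155, and both differences were under the 20 points that a call needs. With unique CpGs alone these were -3.85 and -3.17 points. The other 5 loci differed by -0.486 to 1.13 points. The median over the 7 loci was 0.136 points and over all loci 0.441. Levels over loci ran from Hba-x at 50.2% to 52.5%, through Hba-a2 at 62.0% to 64.6%, to Hba-a1 at 73.6% to 75.2%. The loci of the beta genes lay between 82.7% and 94.2%. This order includes the flanks and is not one of the genes themselves. The upstream flank of Hba-x, which holds the Nprl3 run, was at 35.4% to 38.4%, while the Hba-x body was at 77.5% to 83.2%. Neighbouring loci share CpGs, so these values are not independent, and the beta loci overlapped in their ranges.

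Females and males did not differ beyond the threshold in any of the 81 windows, against 0.00103% of autosomal windows called over the genome. By the quasi-binomial model 7 windows had an unadjusted p under 0.05 and the lowest adjusted p was 0.7, and limma called 0. The share of all autosomal windows under that unadjusted p is not given here.

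Among other genes of the beta region, the promoters of Hbb-bh2 and of the pseudogenes Hbb-bh0, Hbb-bh3 and Gm15115 were at 85.1% to 98.0% in every file. Among lists of related genes, none of the 55 promoters tested was called (quasi-binomial model, B against T cells), where 0.915% of all promoters were. At an unadjusted p under 0.05 there were 8, beside 14.3% of all promoters, and limma called 0. The promoters tested were those of 6 of 10 further globins, 16 of 16 erythroid transcription factors, 9 of 10 genes of haem synthesis, 17 of 17 red cell membrane and surface genes, and 7 of 8 globin chaperone and late erythroid genes. Their median differences were 0.0993, -0.217, 0.792, -0.0337 and 1.14 points, beside 0.147 over all promoters. Their median levels were 31.6%, 3.40%, 8.20%, 30.4% and 16.3%, below the 83.4% of the 7 members.

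Promoters with large differences within these lists were as follows. For further globins they were Hbb-bh2 (6.08 points), Hbq1b (2.66) and Ngb (-2.54), the last a globin of nerve cells. For transcription factors they were Runx1 (6.22), a factor of blood stem cells, Lmo2 (-3.97) and Gata2 (3.18). For haem synthesis they were Fech (-11.0), which inserts iron in the last step, Alas2 (9.78), the erythroid enzyme of the opening step, and Slc25a38 (3.36). Of the membrane genes, Dmtn differed by -8.96 points. For late erythroid genes they were Car1 (4.54), a carbonic anhydrase, Trim10 (2.12) and Blvrb (1.15). Adjusted p for these was between 0.0523 and 0.927 by the quasi-binomial model. Of the 7 markers fixed for erythroid cells, 6 promoters were tested, with a median level of 69.6% and a median difference of -0.372 points, and none was called.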

How the data were processed

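Whole-genome bisulfite sequencing of 8 samples gave 4 deposited files, 1 for each sex and cell type. Each file lists, for a CpG, as deposited by the authors, a fraction of methylated reads and the coverage, a count. Fraction times coverage gave whole reads, with the fraction matched to 0.001, in 100% of entries, and every entry had at least 5 reads. The submitters' processing notes name Trim Galore, FastQC, Bismark 0.13.1 and the mm10 build, whose coordinates are those of GRCm38. How reads with several matches were treated, duplicate removal and conversion rates are not given in the sources used here, and the treatment of several matches bears on near-identical copies. PCR duplicates, if kept, make counting error larger than the Wilson intervals state. So does the counting of a read at each CpG that it covers, and the tests used the same counts.

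Positions count from 0 and were shifted by 1, after which all entries near both regions lay on reference CpGs. Methylated reads were the fraction times the coverage, rounded. Windows of 1 kb, promoters (1 kb to either side of the start) and loci (10 kb to either side of the gene) needed at least 3 CpGs with 5 reads in every file. A quasi-binomial model of the reads per feature held cell type and sex (1 residual degree of freedom). Its dispersion was moderated with limma 3.58.1 in R 4.3.3, the prior coming from features with at least 5 expected methylated and unmethylated reads in every file, and terms were tested by F tests. For windows this prior was in effect fixed. On 50000 simulated windows, 73, 182 and 200 of 200 windows changed by 20, 30 and 50 points between B and T cells were called, with 2 false calls. The simulation gave every window 1 common spread, so it cannot check that the real windows share one. Changed windows were taken only from those of intermediate level, while the median level was 84.9% in the alpha and 92.0% in the beta windows. Copies were aligned with blastn 2.17.0. Members, gene lists, the prior and the tests were chosen with earlier results of these data known. The 40-point measure over single CpGs, the sums over matching CpGs of both copies (pairs with both CpGs in every file), and the low stretch before Hba-x were chosen after values had been seen. Named were all members, other genes in the regions, called windows, the 5 windows lowest in level and the 5 largest in difference in each region, CpGs of printed promoters, and the 3 largest differences of each list, of which some are not reported here. Alternatives changed the prior, threshold, coverage minimum, test, sex term, feature size and files used. With 1 file a group, no p-value measures the spread between animals. For windows the spread was the common one, not that between the files at the window itself.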

Additional observations from a re-analysis of the deposited data

Results flagged for a closer look

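Among the members' loci and promoters and the other genes named for their differences, B minus T went in opposite directions in females and males as follows. Further genes of the lists did so too and are not given here. With 1 file in each group, this difference between the sexes was not tested. At loci it concerned small values: Hbb-y with -1.37 points in females and 0.396 in males, Hbb-bh1 with -0.528 and 0.800, and Hba-x with -0.236 and 2.19. At named promoters it concerned Hbq1b with -0.177 points in females and 5.50 in males, Trim10 with 9.88 and -5.64, and Blvrb with 5.26 and -2.95.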

How the results depend on the processing

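Of the 81 windows, the 3 called between B and T cells became 0 with a prior from all features, 6 with a threshold of 10 points, and 0 with a coverage minimum of 10 reads, which left 48 windows tested and none of the 3 among them. Leaving out each file in turn gave 2 to 4 windows, those at Hbb-bs and before Hbb-bh1 among them each time. These fits hold cell type alone and leave 1 cell type with a single file, assumed to vary like the other, and their spread comes almost wholly from the common prior, so they do not measure stability at a window. Limma gave 2, without that at Hba-a1, the fit without a sex term 3 and windows of 500 bases 4. Member promoters called went from 0 to 1 (Hbb-bh1) with limma and with 500 bases to either side. At 500 bases Hbb-y, Hba-a1 and Hba-a2 held too few CpGs to be tested. Apart from limma, the shares called over all features at these settings are not given here. The counts of windows and promoters above therefore cannot be set against the genome. Loci stayed at 0 and sex windows at 0 under each alternative run. The mean level of the alpha region moved from 59.4% to 61.3% as a mean over CpGs and to 57.1% at a coverage minimum of 10 reads. That of the beta region stayed between 88.3% and 89.2%. Of 41 recomputed B minus T values of member loci and promoters, 28 moved by less than the spread between the sexes and 35 kept their sign. The Hbb-bh1 promoter turned to 9.60 points at a coverage minimum of 10 reads, which left 2 of its 7 CpGs. With unique CpGs alone, the Hba-a1 promoter turned to -6.07 points on 3 CpGs and that of Hba-a2 to -6.18 on 1, and the Hbb-bt and Hbb-bs loci shrank to -3.85 and -3.17. At that coverage minimum no CpG of the Hba-a1 promoter was left. No paired analysis was possible because no replicate number is shared between groups and each group has 1 file. Depth limits all single-CpG values, many of which rest on 5 to 20 reads.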
